A study of Mus musculus with 3 samples.

Results

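Inhibitory neurons of the mouse hindbrain that carry a *Gipr*-driven fluorescent reporter are described here, from the unfiltered molecule counts of single sorted cells. They were the barcodes of the Gipr-EYFP library with at least 4000 unique molecular identifiers (UMIs), at most 20% of UMIs from mitochondrial genes, and at least 1 UMI each of the neuronal genes *Syt1* and *Snap25* and of *Slc32a1*, which encodes the vesicular transporter of GABA and glycine. Barcodes with a UMI of *Slc17a6* (a vesicular glutamate transporter), *Pkd2l1* (a channel of neurons that contact the cerebrospinal fluid) or *Aqp4* (an astrocyte water channel) were left out. The rule kept 54 cells, which are 69.2% (95% CI, 57.8% to 79.2%) of the 78 barcodes with *Syt1* and *Snap25* in that library. They are 1.26% of the 4272 barcodes of the library past the depth and mitochondrial limits, and 0.723% of the 7467 such barcodes in all 3 libraries.

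The study sorted EYFP-positive cells from the hindbrain, between -6.00 and -8.12 mm from bregma, of male mice aged 4 to 6 weeks and measured their RNA with the 10x Chromium 3′ kit, which counts molecules of messenger RNA in droplets. In Gipr-EYFP mice Cre recombinase is expressed from *Gipr* and switches on an EYFP reporter, and in Glp1r-EYFP mice Cre is expressed from *Glp1r* and the reporter is the same. The labels name no treatment, and each library came from 1 suspension of 4 to 6 pooled mice. There was 1 Gipr-EYFP library and there were 2 Glp1r-EYFP libraries, so the genotype of the Gipr-EYFP cells and their library cannot be told apart. The reporter stays on once Cre has acted, and it therefore also marks cells that used the driver gene only earlier in life. The libraries held 62705038, 27277448 and 13568994 UMIs. None of the 54 barcodes occurred with 1000 or more UMIs in a Glp1r-EYFP library, and the Gipr-EYFP library shared 3 and 1 barcodes past the limits with Glp1r-EYFP replicates 1 and 2.

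GIPR is the receptor of the gut hormone GIP (glucose-dependent insulinotropic polypeptide). It couples to the stimulatory G protein Gs, which raises cyclic AMP in the cell. In the dorsal hindbrain, the area postrema lies outside the blood-brain barrier and the neighbouring nucleus of the solitary tract receives signals from the gut through the vagus nerve. Inhibitory neurons there release GABA, glycine or both, and many also release neuropeptides.

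Each value below is a level, the UMIs that all cells of a group held for a gene, per 1000000 UMIs of that group (CPM), or a share of cells with at least 1 UMI. Intervals are exact at 95% and cover counting error only, since cells of 1 library are not replicates, and groups were therefore compared by the size of a difference and not by a test. The median depth was 29989 UMIs per inhibitory Gipr-EYFP neuron (range, 11576 to 47332). The comparison groups chosen with the same limits were 13 and 26 inhibitory neurons of Glp1r-EYFP replicates 1 and 2, with medians of 23824 and 16083 UMIs, and 13 excitatory neurons of the Gipr-EYFP library, with *Slc17a6* and without *Slc32a1*, at a median of 35842 UMIs. The 783 oligodendrocytes of the Gipr-EYFP library, with a median of 23407 UMIs, gave the share of another cell type with a UMI of a neuronal gene. Whether such UMIs come from free RNA was not tested.

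The identity given by *Slc32a1* extended to genes that the rule did not use. *Gad2*, which encodes one of the enzymes that make GABA, was found in 54 of 54 cells, with 4 to 69 UMIs per cell and a median of 28. *Gad1*, which encodes the other enzyme, was found in 53 of 54 cells, with a median of 26 UMIs. In oligodendrocytes, 1.02% of cells had a UMI of *Gad2* and 1.28% one of *Gad1*. The lowest values of the genes that chose the cells were 2 UMIs of *Slc32a1*, 2 of *Syt1* and 3 of *Snap25*, near the 1 UMI asked. The fewest UMIs in a cell were 11576 and the highest mitochondrial share was 7.12%. Just outside the rule were 2 neurons with 7 and 9 UMIs of *Slc32a1* and 1 UMI of *Slc17a6* each, and 2 barcodes below 4000 UMIs, of which the larger had 3737. Of the other neurons, 7 carried *Pkd2l1*, 13 carried *Slc17a6* without *Slc32a1*, and 2 carried neither transporter.

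The same rule kept a smaller share of the neurons in the Glp1r-EYFP libraries, 13 of 104 (12.5%; 95% CI, 6.83% to 20.4%) in replicate 1 and 26 of 100 (26%; 95% CI, 17.7% to 35.7%) in replicate 2. These shares follow from the genes of the rule and are a description. Neurons with *Pkd2l1* made up 77.9% and 59.0% of the Glp1r-EYFP neurons and 8.97% of the Gipr-EYFP neurons.

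**Figure D1:**
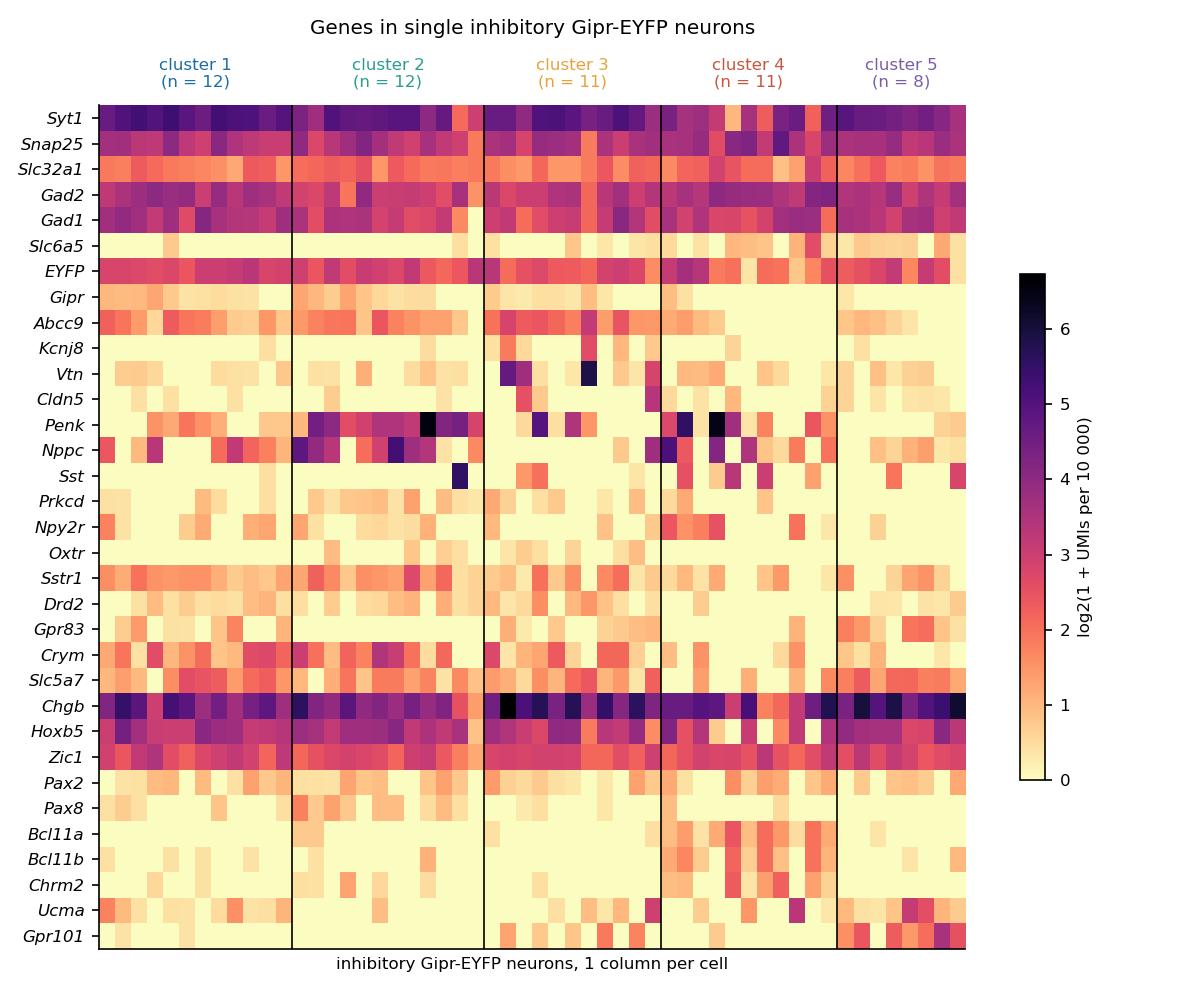
Genes in the 54 inhibitory Gipr-EYFP neurons, 1 column per cell and 1 row per gene, colored by log2(1 + UMIs per 10000 UMIs of the cell) and ordered by cluster. *Gad2* is present in every column, whereas *Penk*, *Nppc*, *Sst* and *Slc6a5* are each present in some columns and absent from others.

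*Gipr* itself was detected in 30 of the 54 cells (55.6%; 95% CI, 41.4% to 69.1%), with 49 UMIs in all, 4 at most in a cell and a level of 30.7 CPM (95% CI, 22.7 to 40.5). In oligodendrocytes, 3.70% had a UMI. The 26 inhibitory neurons of Glp1r-EYFP replicate 2 and the 13 excitatory Gipr-EYFP neurons had no UMI of *Gipr*, and the 13 inhibitory neurons of Glp1r-EYFP replicate 1 had 1 UMI. The level was 9.98-fold (95% CI, 1.71 to 402) that in Glp1r-EYFP replicate 1, at least 5.02-fold that in replicate 2 and at least 4.59-fold that in the excitatory neurons, where "at least" is a bound from 3 UMIs in the group without any. *Glp1r*, which encodes the GLP-1 receptor, had 0 UMIs in the 54 cells, which allows a share of cells with a UMI of up to 5.56% at this depth (3 of 54 cells) and sets no limit on the cells that express the gene. In the Glp1r-EYFP libraries it had 0 UMIs in the 13 inhibitory neurons of replicate 1 and 25 UMIs in 7 of the 26 of replicate 2. The reporter, *EYFP*, was present in 54 of 54 cells at 547 CPM (range, 1 to 36 UMIs), against 187 and 140 CPM in the inhibitory Glp1r-EYFP neurons. Since 92.2% of the oligodendrocytes also had a UMI of *EYFP*, at 186 CPM, its presence in a cell does not separate neurons from their surroundings.

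A single UMI is a coarse measure of a receptor at this level. After every cell was thinned to 4000 UMIs, 12.2% of the inhibitory Gipr-EYFP neurons were expected to hold a UMI of *Gipr*, against 1.52% and 0% of the inhibitory Glp1r-EYFP neurons and 0.576% of the oligodendrocytes. Cells with and without a UMI had like depths (medians, 30006.5 and 29924 UMIs).

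*Abcc9*, which encodes the SUR2 subunit of ATP-sensitive potassium channels and is a common marker of pericytes, was present in 43 of the 54 cells (79.6%; 95% CI, 66.5% to 89.4%), with 0 to 21 UMIs per cell and a median of 4. Its level was 173 CPM (95% CI, 153 to 194), against 12.3 CPM (4 UMIs) and 0 CPM in the inhibitory Glp1r-EYFP neurons and 2.22 CPM (1 UMI) in the excitatory Gipr-EYFP neurons. Oligodendrocytes of the library held 34.6 CPM and 16.6% of them had a UMI, and 658 pericytes held 1900 CPM. *Kcnj8*, which encodes the pore that pairs with SUR2 in pericytes, was at 16.9 CPM in the neurons and 1571 CPM in the pericytes. There were thus 10.2 UMIs of *Abcc9* per UMI of *Kcnj8* in the neurons (95% CI, 6.87 to 15.8), 1.21 in pericytes (95% CI, 1.17 to 1.25), 1.37 in oligodendrocytes (95% CI, 1.22 to 1.55) and 0.880 in empty droplets. The interval in the inhibitory neurons lies above those of pericytes and oligodendrocytes, whereas the excitatory neurons, with 1 UMI of each gene, gave an interval of 0.0127 to 78.5 that contains it. The inhibitory neurons held 27 UMIs of *Kcnj8*. Of these, 19 were in the 4 cells with 10 or more UMIs of the pericyte markers given below, at a ratio of 2.84. In the 31 cells with few vascular and myelin UMIs, also given below, the ratio was 46.3 (95% CI, 15.5 to 227). *Kcnj8* is one of the genes that chose those 31 cells. The level of *Abcc9* in the neurons was below that in empty droplets (402 CPM), so *Abcc9* did not meet the limit on free RNA that was set for genes compared between groups.

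*Abcc9* and the pericyte markers both had higher summed levels in cells with *Gipr*. All 30 cells with a UMI of *Gipr* had *Abcc9* (252 CPM; 95% CI, 220 to 287), and 13 of the 24 cells without had it (72.2 CPM; 95% CI, 53.8 to 95). The 9 pericyte markers other than *Abcc9* were at 708 CPM in the cells with *Gipr* and 214 CPM in those without, and *Vtn*, one of them, at 262 and 58.1 CPM. Over all 54 cells these markers summed to 783 UMIs (490 CPM; most abundant, *Rgs5* with 293 UMIs), none of the 9 was at 0, and 4 cells with 10 or more of these UMIs held 649 of them. Those 4 cells held 54 of the 276 UMIs of *Abcc9*. Without them, a choice made after seeing the data, the level of *Abcc9* was 150 CPM. It was then 220 CPM (95% CI, 189 to 255) in the 27 remaining cells with *Gipr* and 68.0 CPM (95% CI, 49.8 to 90.6) in the 23 without, where the pericyte markers were at 73.9 and 111 CPM. The 5 cells with no UMI of any of the 9 markers held 37 UMIs of *Abcc9* (293 CPM; 95% CI, 206 to 404), and all 5 had both *Abcc9* and *Gipr*. *Abcc9* was at 109 CPM in the 21 cells with 1 or 2 UMIs of the markers (13 with *Abcc9*), at 201 CPM in the 28 with 3 or more and at 439 CPM in the 4 of these with 10 or more, so it was higher with more marker UMIs outside those 5 cells. In the 31 cells with fewer than 3 UMIs of *Kcnj8*, *Vtn*, *Cldn5*, *Acta2* and *Mog* together, *Abcc9* was at 155 CPM and present in 23 cells, and 18 of the 31 had *Gipr*. A rule that also leaves out cells with *Abcc9* or the oligodendrocyte gene *Olig1* kept 10 of the 54 cells, none of them with a UMI of *Gipr*. Of the other channel genes, *Kcnj11* (the pore of the pancreatic type of channel) was present in 17 cells and *Abcc8* (its SUR1 subunit) in 24, and 26 cells had *Abcc9* with at least one of these.

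**Figure D2:**
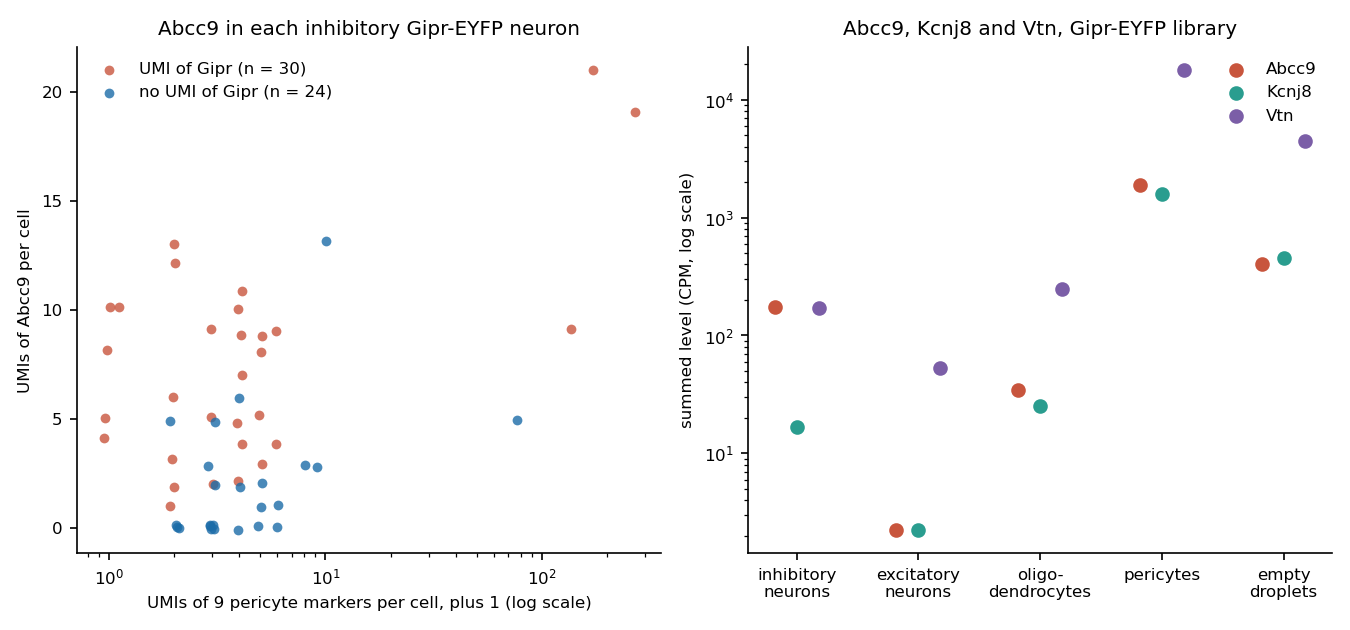
Left, UMIs of *Abcc9* in each of the 54 inhibitory Gipr-EYFP neurons against the UMIs of the 9 other pericyte markers plus 1 (log scale; points are moved slightly apart), colored by whether the cell had a UMI of *Gipr*. Right, summed levels of *Abcc9*, *Kcnj8* and *Vtn* in CPM (log scale) in 5 groups of barcodes of the library. The 5 cells without pericyte markers hold 4 to 10 UMIs of *Abcc9*, and the inhibitory neurons hold 10.2 UMIs of *Abcc9* per UMI of *Kcnj8*. Of the 27 UMIs of *Kcnj8* in these neurons, 19 lie in 4 cells.

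Among listed genes of transmitters other than GABA and glycine, 1 of 3 compared with the inhibitory Glp1r-EYFP neurons, *Slc5a7*, was higher by the rule of size set out below, against 1.12% of all genes. *Slc6a5*, the plasma membrane glycine transporter of glycinergic neurons, was present in 22 cells at 28.2 CPM (95% CI, 20.5 to 37.7), against 224 CPM in Glp1r-EYFP replicate 1 and 79.3 CPM in replicate 2, where the difference was short of 4-fold. The excitatory Gipr-EYFP neurons had 0 UMIs of *Slc6a5*, so it was at least 4.22-fold higher than there. *Gad1* differed little, at 1.09-fold (95% CI, 0.953 to 1.25) and 1.20-fold (95% CI, 1.07 to 1.36) the levels in the inhibitory Glp1r-EYFP libraries. *Slc5a7*, which encodes the high-affinity choline transporter, was present in 45 of the 54 cells at 181 CPM (95% CI, 161 to 204). It had 3 UMIs in the inhibitory neurons of Glp1r-EYFP replicate 1 and 0 UMIs in those of replicate 2 and in the excitatory Gipr-EYFP neurons, and 0.511% of oligodendrocytes had a UMI. *Slc18a3* (the vesicular acetylcholine transporter) was present in 12 cells and *Chat* (the enzyme that makes acetylcholine) in 7, of which 6 also had *Slc5a7*, and both genes had 0 UMIs in the 3 comparison groups. *Th*, the first enzyme of catecholamine synthesis, had 0 UMIs in the inhibitory Gipr-EYFP neurons, whereas *Dbh*, which makes noradrenaline, was present in 12 of them at 13.1 CPM. Dopa decarboxylase, *Ddc*, had 3 UMIs.

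Neuropeptide genes were uneven across the cells. *Penk*, the precursor of the enkephalin opioids, was present in 35 of 54 cells (64.8%; 95% CI, 50.6% to 77.3%) with 0 to 240 UMIs per cell and a median of 2. Its level of 683 CPM (95% CI, 643 to 724) was 4.73-fold (95% CI, 3.53 to 6.47) and 12-fold (95% CI, 8.25 to 18.1) that in the inhibitory Glp1r-EYFP libraries, and 1 cell gave 22% of the UMIs. Without the 23 cells that held 3 or more vascular or myelin UMIs it was 369 CPM, 2.55-fold the level in Glp1r-EYFP replicate 1, which is short of 4-fold. *Nppc*, which encodes C-type natriuretic peptide, was present in 34 cells (0 to 125 UMIs; median, 2.5) at 426 CPM (95% CI, 395 to 459), against 111 and 77.3 CPM. Its ratios were 3.85 (95% CI, 2.75 to 5.55) and 5.51 (95% CI, 3.98 to 7.86), so it fell short of 4-fold in 1 library. Without the same 23 cells *Nppc* was at 485 CPM, with ratios of 4.39 and 6.28, and it then met the rule of size. A single UMI of *Nppc* says less about a neuron, since 30.5% of oligodendrocytes also had a UMI (24.6 CPM). A total of 47 cells had *Penk* or *Nppc*, 22 had both, and 12 had both with *Gipr*. *Sst*, somatostatin, was present in 12 cells, and 1 of them held 57.7% of its UMIs. *Vgf*, a granule protein that is cut into peptides, was at 226 CPM against 467 and 466 CPM. *Pnoc*, the nociceptin precursor, was present in 2 cells at 7.51 CPM, against 120 and 112 CPM, a 16-fold (95% CI, 8.19 to 33.5) and 14.9-fold (95% CI, 7.88 to 30.6) lower level, and at 13.4 CPM without the 23 cells. Of the 39 neuropeptide genes listed, 23 had 0 UMIs in the 54 cells, as had 17619 of all 32533 genes. Among the 10 compared with the inhibitory Glp1r-EYFP neurons, *Penk* was higher and *Pnoc* lower by the rule of size set out below, and 8 were neither. Over all genes 1.12% were higher and 1.87% lower. The median log2 ratio of the 10 was -2.15, against 0.13 for all genes.

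Both inhibitory populations were then compared over all genes with a rule of size. A gene counted as higher or lower with at least a 4-fold difference from each Glp1r-EYFP library, and with 30 UMIs, a UMI in 20% of cells and 2 times the level of empty droplets in the higher group, where no cell gave more than 50% of the UMIs. Counts under 3 entered as 3 UMIs, and *Gipr* itself, with 3 UMIs entered for replicate 1, was then 3.33-fold higher there and did not meet the rule. Of 7383 genes with enough UMIs, 83 were higher (1.12%) and 138 lower (1.87%) in the Gipr-EYFP neurons, 2.99% in either direction, and the median log2 ratio of all genes was 0.13. The count depended on the Glp1r-EYFP library. Against replicate 2 alone 150 genes were higher and 112 lower, and against replicate 1 alone 108 were higher and 68 lower, where a gene also needed its 30 UMIs in 1 library. Smooth muscle markers stood at 26.9 CPM in the Gipr-EYFP neurons and 363 and 242 CPM in the inhibitory Glp1r-EYFP neurons, and pericyte markers at 490 against 52.2 and 6.1 CPM. With the 23 cells that held 3 or more vascular or myelin UMIs left out, 84 genes were higher and 133 lower, of which 79 and 126 were shared with the calls on all cells. In the oligodendrocytes of the same libraries, 6 of the 37 higher genes with enough UMIs there (*Enpp3*, *Gm20721*, *Hoxa4*, *Ndnf*, *Slc5a3* and *Zic1*) and 3 of the 47 lower ones (*C1qtnf4*, *Irx5* and *Pcdh7*) differed at least 2-fold in the same direction. The share of all genes that differ so in oligodendrocytes was not computed, so these counts have no background to be read against.

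The 12 genes with the greatest ratios among the higher genes included signaling molecules, transporters and transcription factors. *Map2k6*, a kinase upstream of p38, was present in 51 cells at 345 CPM, against 3 and 1 UMIs. *Crym*, which encodes a protein that binds thyroid hormone, was present in 39 cells at 183 CPM, with 0 UMIs in both Glp1r-EYFP groups, so at least 19.9-fold and 30.0-fold higher. *Slc4a4*, a sodium bicarbonate cotransporter, was at 289 CPM against 12.3 and 6.1 CPM. *Slc5a7* is given above, at 19.7-fold (95% CI, 6.67 to 96.0) and at least 29.7-fold. *Trp53i11* (907 CPM against 58.4 and 34.6) and *Fam43a* (94.5 against 6.14 and 4.07) were also among the 12.

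Several of these genes encode developmental transcription factors. *Zic1*, which marks dorsal neural progenitors and some of the neurons they form, was present in 54 of 54 cells (4 to 31 UMIs) at 559 CPM against 39.9 and 36.6 CPM, a 14.0-fold (95% CI, 8.14 to 26.4) and 15.3-fold (95% CI, 9.60 to 25.9) higher level. *Zic1* is one of the genes that also differed in oligodendrocytes. *Zic4* was at 175 against 15.4 and 0 CPM, and *Zic2* (85.7 against 9.22 and 2.03 CPM) and *Zic5*, chosen after their values were seen, were higher too. *Pax5* was at 122 against 6.14 and 2.03 CPM and *Zbtb42*, a zinc finger protein, at 121 against 0 and 0 CPM. *Pax2*, which specifies inhibitory neurons in the dorsal hindbrain and spinal cord, was present in 40 cells at 59.4 CPM, close to the 49.2 CPM of Glp1r-EYFP replicate 1 and above the 6.1 CPM of replicate 2. Of the 19 compared genes in a list of hindbrain transcription factors, *Tfap2a* was higher, *Ebf3* and *Satb1* were lower and 16 were neither, where 1.12% of all genes were higher and 1.87% lower.

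Hox genes, which set position along the head-to-tail axis, mostly did not meet the rule. Of 39 listed, 23 had 0 UMIs, as had 17619 of all 32533 genes. A total of 13 were compared, of which *Hoxa4* and *Hoxc4* were higher (1.12% of all genes were), none was lower and 11 were neither. The median log2 ratio of the 13 was 2.16, against 0.13 for all genes. *Hoxb5* was present in 51 of 54 cells (0 to 66 UMIs; median, 27) at 959 CPM, against 341 and 73.2 CPM. *Hoxa5* was at 695 CPM, against 261 and 50.8 CPM. The Glp1r-EYFP libraries thus differed from each other in both genes, and leaving replicate 1 out raises the ratio. *Hoxc4* was at 255 against 36.9 and 24.4 CPM, 6.92-fold (95% CI, 3.92 to 13.5) and 10.5-fold (95% CI, 5.92 to 20.4). *Hoxa4* was at 151 against 24.6 and 8.13 CPM and differed in oligodendrocytes as well.

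**Figure D3:**
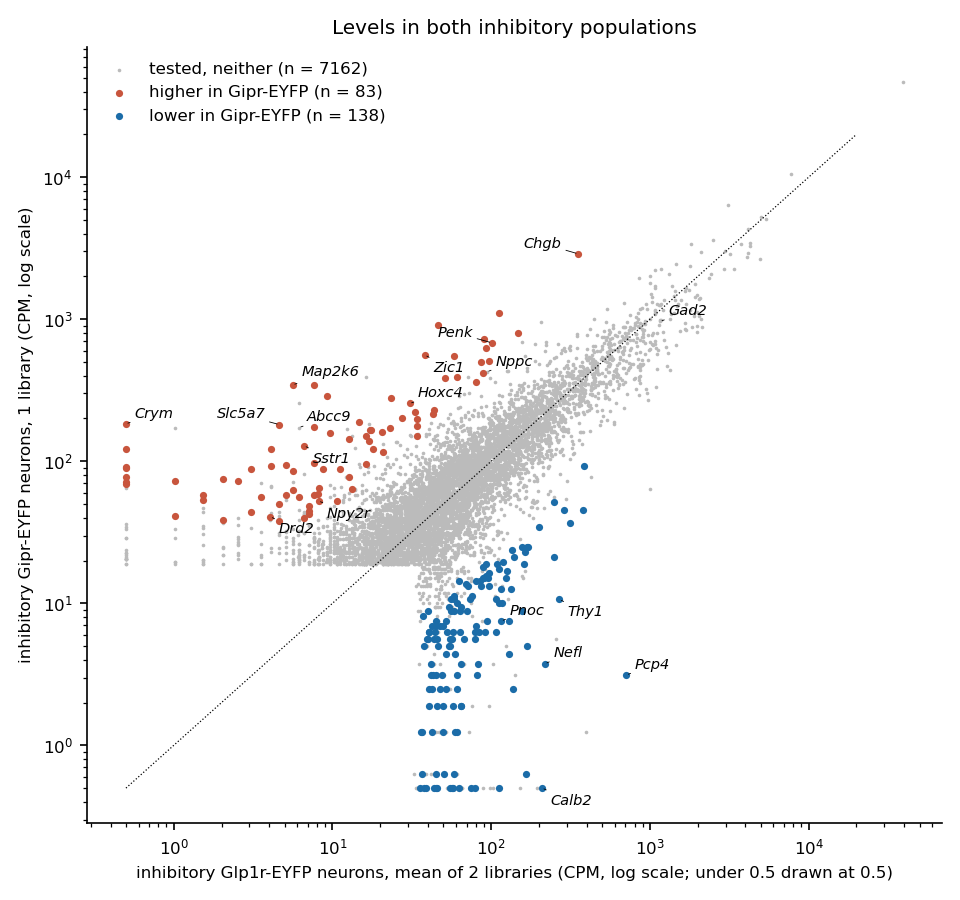
Levels of 7383 genes in the inhibitory Gipr-EYFP neurons against their mean in the 2 groups of inhibitory Glp1r-EYFP neurons, both in CPM on log axes; the dotted line marks equal levels and values under 0.5 are drawn at 0.5. The 83 higher genes lie above the line and the 138 lower genes below it, while *Gad2* lies close to it.

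Single receptor genes of somatostatin (*Sstr1*), dopamine (*Drd2*) and peptide YY (*Npy2r*) were higher than in both Glp1r-EYFP groups. Single receptor genes of PACAP and of kappa opioids and a nicotinic subunit were lower. *Sstr1*, a somatostatin receptor, was present in 46 of 54 cells (0 to 15 UMIs; median, 3) at 128 CPM (95% CI, 111 to 147), with 3 and 2 UMIs in the inhibitory Glp1r-EYFP groups and 0% of oligodendrocytes with a UMI. *Drd2*, the dopamine D2 receptor, was present in 34 cells at 40.7 CPM (95% CI, 31.4 to 51.8), against 0 and 8.13 CPM, at least 4.41-fold and 5-fold (95% CI, 1.86 to 18.9). *Npy2r*, the receptor of peptide YY, was present in 23 cells (42.6%; 95% CI, 29.2% to 56.8%) at 52.5 CPM, against 12.3 and 4.07 CPM, 4.28-fold (95% CI, 1.61 to 16.1) and 12.9-fold (95% CI, 3.47 to 108). *Npy2r* was found in 16 of the 30 cells with *Gipr* and 7 of the 24 without. *Oxtr*, the oxytocin receptor, was present in 10 cells with 19 UMIs (11.9 CPM), too few for the rule of size, and in 3 cells of the Glp1r-EYFP groups together. Without the 23 cells that held 3 or more vascular or myelin UMIs, *Oxtr* was at 5.59 CPM. *Gpr83*, a G protein-coupled receptor, was at 51.3 CPM against 0 and 54.9 CPM, so the Glp1r-EYFP libraries lay on both sides. Among genes of hormone and metabolic receptors, *Calcr* and *Gfral* had 0 UMIs, *Lepr* had 4 and *Mc4r* had 2. *Oprk1* (the kappa opioid receptor), *Adcyap1r1* (the PACAP receptor) and *Chrna4* (a nicotinic subunit) were lower. In the higher direction the rule was met by 1 of 6 compared genes of gut hormone and metabolic receptors, 1 of 4 of other neuropeptide receptors and 1 of 3 of monoamine receptors, against 1.12% of all genes. In the lower direction it was met by 2 of the 4 other neuropeptide receptors and 1 of 2 acetylcholine receptor genes, against 1.87% of all genes, and the median log2 ratios of these lists were -2.35 and -2.69, against 0.13.

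**Figure D4:**
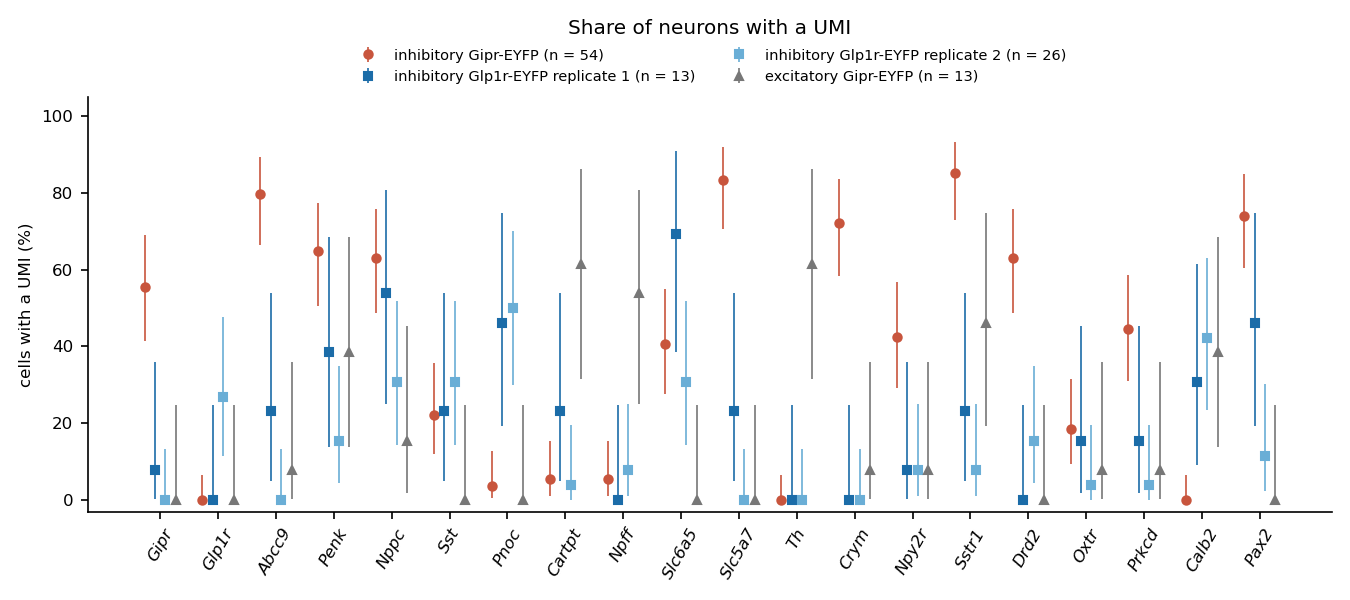
Share of cells with at least 1 UMI of 20 genes in the 54 inhibitory Gipr-EYFP neurons, in the inhibitory neurons of the 2 Glp1r-EYFP libraries and in the 13 excitatory Gipr-EYFP neurons, with exact 95% intervals, not corrected for depth. The intervals of *Slc5a7* and *Crym* in the inhibitory Gipr-EYFP neurons lie above those of the other groups, and *Th* is found in excitatory neurons.

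Most compared genes of granules and of the cyclic AMP pathway met the rule in neither direction. *Chgb*, which encodes chromogranin B, a packing protein of dense-core granules, was higher. It was present in 54 of 54 cells, with 3 to 366 UMIs and a median of 57, at 2887 CPM (95% CI, 2804 to 2972), against 353 and 352 CPM, an 8.17-fold (95% CI, 6.79 to 9.92) and 8.21-fold (95% CI, 7.05 to 9.61) higher level. *Scg2*, secretogranin II, was 2.08-fold (95% CI, 1.85 to 2.35) and 2.49-fold (95% CI, 2.24 to 2.78) higher and did not reach 4-fold. *Cadps2*, a factor of granule release, was lower, and 10 of the 12 compared granule genes were neither, where 1.12% of all genes were higher and 1.87% lower. *Gnas*, which encodes Gs alpha, was at 6365 CPM (14 to 434 UMIs per cell; median, 187.5), 1.98-fold (95% CI, 1.86 to 2.11) and 2.15-fold (95% CI, 2.04 to 2.28) the Glp1r-EYFP levels. Of 22 compared genes of the cyclic AMP pathway, none was higher, and *Adcy1* (an adenylyl cyclase), *Pde1b* and *Pde4a* (phosphodiesterases) were lower, against 1.87% of all genes. The median log2 ratio of the list was 0.08, against 0.13 for all genes.

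*Chgb*, *Scg2* and the convertase gene *Pcsk1* each hold a full cyclic AMP response element, TGACGTCA, shortly before the transcription start in the RefSeq annotation of GRCm38.p6, a build other than that of the counts. These 3 sequences are shown because they hold the element, the genes belong to the listed granule and processing genes, and Gs raises cyclic AMP. Of other genes looked up, *Clstn2* also holds it. *Nppc*, *Npy2r*, *Abcc9*, *Nr4a1*, *Gnas*, *Slc5a7* and *Map2k6* do not hold it in the 250 bases before a start. The share of all listed granule genes with the element was not computed. Each line gives 30 bases, 5′ to 3′ on the strand of the gene, with the element in capitals.
*Chgb* (chr2:132781559-132781588, plus strand, element 72 bases before the start): gggctgctccgTGACGTCAgggctgagcga
*Scg2* (chr1:79440076-79440105, minus strand, element 68 bases before the start): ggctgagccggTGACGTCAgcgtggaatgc
*Pcsk1* (chr13:75089768-75089797, plus strand, element 78 bases before the start): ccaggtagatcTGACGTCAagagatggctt
With the same element, *Chgb* was higher than in both Glp1r-EYFP groups, *Scg2* was 2.49-fold higher at most, and *Pcsk1* was at 25.0 CPM in 23 cells. The element, which reads the same on both strands and contains the shorter motif TGACG, occurs in the 250 bases before the start in 1.77% of 27025 genes, and TGACG on either strand in 19.8%. Of the 56 higher genes with an entry, 1.79% hold the full element (*Chgb* alone) and 12.5% the short motif, so the share with the full element was close to that of all genes. Of the genes lower than in the Glp1r-EYFP neurons, 1.03% hold it. In the comparison with the excitatory neurons given below, it is held by 0.855% of the higher genes and by 5 of 72 lower genes (6.94%: *Cartpt*, *Fstl4*, *Pcsk1*, *Th* and *Uncx*).

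Channels and receptors of synapses differed in both directions. *Grin3a*, an NMDA receptor subunit, was present in 53 cells at 221 CPM, 6.55-fold (95% CI, 3.62 to 13.2) and 6.81-fold (95% CI, 4.13 to 12) higher, whereas *Gria3*, *Grin2b* and *Grin2d* were lower, with *Gria3* at 8.76 CPM against 200 and 114 CPM. *Scn9a*, the sodium channel Nav1.7, was at 176 against 33.8 and 34.6 CPM. *Scn1a* and *Cacna2d3* were lower. Among potassium channels, *Kcnk1* (511 against 120 and 73.2 CPM) and *Kcnmb4* (62.6 against 9.22 and 2.03 CPM) were higher and *Kcnj3*, a subunit of channels opened by inhibitory G proteins, was lower, at 1.25 against 46.1 and 38.6 CPM. The glycine receptor subunits *Glra1* (3.13 CPM against 67.6 and 22.4) and *Glra3* (1.88 against 95.2 and 34.6) and the GABA receptor subunit *Gabrg1* were lower. The other 11 of 14 compared genes of GABA and glycine receptors, 12 of 16 of glutamate receptors, 21 of 24 of potassium and HCN channels and 13 of 17 of sodium and calcium channels were neither, where 1.12% of all genes were higher and 1.87% lower.

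The genes with the greatest ratios in the lower direction were *Pcp4* (5 UMIs, 3.13 CPM, against 516 and 907 CPM), *Calb2*, *Nefl*, *Gng13*, *Lmo1*, *Fxyd7*, *C1ql3*, *Gng4*, *Shisal1*, *Tafa1*, *Lor* and *Smim17*. *Calb2*, which encodes the calcium-binding protein calretinin, had 0 UMIs in the 54 cells and was at 227 and 191 CPM in the inhibitory Glp1r-EYFP groups, at least 121-fold and 102-fold lower. *Reln*, which encodes the secreted protein reelin, also had 0 UMIs, against 30.7 and 61.0 CPM. *Ndnf*, which marks some interneurons of the cortex, went the other way, at 386 against 73.7 and 28.5 CPM, and also differed in oligodendrocytes. Of 16 compared general neuronal genes, 4 were lower, against 1.87% of all genes, and none higher. The lower ones were *Rbfox3* (the NeuN protein; 12.5 against 151 and 81.3 CPM), *Thy1* (10.6 against 270 and 268 CPM) and the neurofilament genes *Nefl* (3.75 against 233 and 203 CPM) and *Nefm*. The median log2 ratio of this list was -0.73, against 0.13 for all genes. *Rbfox3* was found in 10 of the 54 cells, compared with 11 of 13 and 19 of 26 inhibitory Glp1r-EYFP neurons.

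The next comparison was with the excitatory neurons of the same library, which share animals and reagents with the inhibitory neurons. These comparisons use the same 54 cells as those above. Of 7196 genes, 161 (2.24%) were higher and 103 (1.43%) lower in the inhibitory neurons, 3.67% in either direction, with a median log2 ratio of 0.11 over all genes. The values of *Slc32a1* and *Slc17a6* among these follow from the rule. *Syt1*, of which the rule asked 1 UMI in both groups, was at 2242 against 189 CPM. The excitatory neurons held 5681 CPM of oligodendrocyte markers, against 253 CPM in the inhibitory neurons (*Olig2* at 0), and without the excitatory neurons that held 50 or more of these UMIs 156 genes were higher and 97 lower.

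*Hoxb5*, *Gad1* and *Hoxa5* led the higher genes. *Hoxb5* was at 959 CPM against 6.67 CPM (3 UMIs), *Hoxa5* at 695 CPM against 0, and 9 of 13 compared Hox genes were higher, against 2.24% of all genes, and none lower, with a median log2 ratio of 2.31 against 0.11. *Hoxc4* did not differ by this rule (255 against 285 CPM). *Gad1* had 1 UMI in the excitatory neurons, while *Gad2* was at 538 CPM there, all of it in 2 of the 13 cells. *Nppc* (2 UMIs in the excitatory neurons), *Ndnf* (at least 57.8-fold), *Map2k6*, *Spon1*, *Crym*, *Slc5a7*, *Lamp5* and *Slc32a1* were also among the 12. *Lamp5*, a marker of some cortical interneurons, was at 180 CPM against 0, and it was at 154 and 212 CPM in the inhibitory Glp1r-EYFP neurons. *Penk* was 10.6-fold (95% CI, 7.33 to 15.9) higher, or 5.72-fold without the 23 cells that held 3 or more vascular or myelin UMIs, *Kcnk1* 11.5-fold (95% CI, 7.39 to 18.9) and *Gipr* at least 4.59-fold.

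The lower genes included precursors of other peptides and enzymes of catecholamine synthesis. *Npff*, the neuropeptide FF precursor, had 3 UMIs in the inhibitory neurons and stood at 3425 CPM in 7 of 13 excitatory neurons. *Cartpt*, an anorexigenic peptide precursor, was at 3.75 against 2731 CPM, 728-fold (95% CI, 333 to 1987) lower. *Calb2* had 0 UMIs against 4286 CPM and *Pcp4* 5 UMIs against 2082 CPM. *Th* (0 against 229 CPM), *Ddc* (1.88 against 438 CPM) and *Dbh* (13.1 against 238 CPM; 18.1-fold, 95% CI, 11.3 to 30.5) were lower, with *Adcyap1*, the PACAP precursor, at 2.50 against 309 CPM. *Sncg*, *Nrn1*, *Dlk1*, *Nell2* and *4930469K13Rik*, with *Slc17a6*, were also among the 12. Of 11 compared neuropeptide genes, *Penk*, *Nppc* and *Vgf* were higher and *Npff*, *Cartpt*, *Adcyap1* and *Nucb2* lower, and of 13 genes of interneuron classes 3 were higher and 9 lower, where 2.24% of all genes were higher and 1.43% lower. The peptide-processing enzyme *Pcsk1* was also lower, at 25.0 against 325 CPM, and *Chgb* was 2.47-fold (95% CI, 2.26 to 2.71) higher.

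Within the inhibitory neurons, the 30 cells with a UMI of *Gipr* were set against the 24 without. Of 5347 genes compared, *Gipr* aside, 2 were higher (0.0374%) and 11 lower (0.206%), 0.243% in either direction, and the median log2 ratio was 0.0046. *Pax8*, a transcription factor of the Pax2 family, was at 35.9 against 8.50 CPM, 4.22-fold (95% CI, 1.74 to 12.3), and present in 15 of 30 and 4 of 24 cells. *Pgr*, the progesterone receptor, had the same UMI counts, 32 and 6, in 17 and 5 cells. The lower genes were *Grin2b* (1 against 39 UMIs, the latter in 5 cells), *Chl1* (0 against 34 UMIs), *Rab3b*, *Ipcef1*, *Cidea*, *Adgrl3*, *Sphkap*, *Nxph4*, *Slc6a5*, *Ucma* and *Gpr101*. *Slc6a5* was at 10.1 against 51.0 CPM, 5.05-fold (95% CI, 2.39 to 11.9) lower, and present in 6 of 30 and 16 of 24 cells. These calls rested on few UMIs. Without the 23 cells that held 3 or more vascular or myelin UMIs, 6 genes were higher and 6 lower. Of the genes named, *Gpr101* and *Rab3b* were still lower, *Ucma* was neither, and *Pax8*, *Pgr* and the other 8 lower genes had too few UMIs to be compared. The ratios of cells with to cells without *Gipr* were then 3.03 for *Pax8*, 3.97 for *Pgr* and 0.116 for *Slc6a5*, and that of *Nppc* was 4.17, so that *Nppc* was among the 6 higher genes. *Abcc9* (3.49-fold; 95% CI, 2.57 to 4.83), *Nppc* (2.71-fold; 95% CI, 2.26 to 3.26), *Prkcd* (2.69-fold; 95% CI, 1.30 to 6.11) and *Penk* (1.94-fold; 95% CI, 1.70 to 2.22) had higher summed levels in cells with *Gipr* and did not reach 4-fold over all 54 cells, and the pericyte markers given above moved the same way over all cells. *Nppc* was nevertheless present in 16 of 30 cells with *Gipr* and 18 of 24 without, and 3 cells with *Gipr* held 125, 79 and 78 of its UMIs. *Penk* was present in 21 of 30 and 14 of 24 cells. *Prkcd*, which encodes protein kinase C delta, was present in 18 of 30 and 6 of 24 cells. *Chgb* was at 0.989-fold (95% CI, 0.933 to 1.05), and its interval includes equal levels.

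Clustering on 1000 variable genes, with every listed gene left out, gave 5 clusters of 8 to 12 cells, numbered by their level of *Gipr*. The leading genes are a description, since they were chosen on the same cells. Cluster 1 (12 cells, 10 with *Gipr*) was led by *Igfbp2* and *Pcdh8*, cluster 2 (12 cells, 9 with *Gipr*) by *Pax8* and *Enpp3*, and cluster 3 (11 cells, 8 with *Gipr*) by *Plch2* and *Clec14a*. Cluster 4 (11 cells, 2 with *Gipr*) was led by *Bcl11a*, *Nnat* and *Bcl11b*, and cluster 5 (8 cells, 1 with *Gipr*) by *Gpr101* and *Cidea*. Cluster 3 held all 4 cells with 10 or more pericyte marker UMIs and 669 of the 783 such UMIs, and with these 4 cells left out there were again 5 clusters, with an adjusted Rand index of 0.629 to the clusters described. Clusters 4 and 5 had other levels of several listed genes than clusters 1 to 3. *Abcc9* was at 198, 180 and 343 CPM in clusters 1 to 3 and at 44.2 and 42.7 CPM in clusters 4 and 5, whereas *Slc6a5* was at 5.66, 2.94 and 19.8 CPM in clusters 1 to 3 and at 73.6 and 53.4 CPM in clusters 4 and 5.

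Peptide genes did not follow this division. *Penk* was at 1751 CPM in cluster 2, where 12 of 12 cells had it, and at 1208 CPM in cluster 4, against 85.0, 380 and 14.2 CPM in clusters 1, 3 and 5. In cluster 4, 2 of the 11 cells held 273 of the 328 UMIs of *Penk*. With the 2 cells of most *Penk* left out of each cluster, a choice made after seeing the data, its level was 1031 CPM in cluster 2, 244 CPM in cluster 4 and 51.7, 17.6 and 0 CPM in clusters 1, 3 and 5. *Nppc* was at 1074 CPM in cluster 2 and 637 CPM in cluster 4, against 252, 108 and 56.9 CPM in clusters 1, 3 and 5. With the 2 cells of most *Nppc* left out of each cluster, it was at 586 and 276 CPM in clusters 2 and 4. It was then at 153, 0 and 32.8 CPM in clusters 1, 3 and 5. *Npy2r* was at 147 CPM in cluster 4 and 62.3 CPM in cluster 1, and at 35.3, 22.7 and 7.12 CPM in clusters 2, 3 and 5. *Oxtr* was found in clusters 2 and 3, with 4 and 6 cells. *Grin2b* was at 136 CPM in 4 cells of cluster 4 and at no more than 5.89 CPM elsewhere. *Drd2* was lowest in cluster 4 (7.36 CPM) and *Gpr83* was found in 0 of 12 cells of cluster 2 and 7 of 8 of cluster 5. *Gad2* varied only from 709 to 1230 CPM between clusters. Under 6 other settings there were 4 to 6 clusters, and the adjusted Rand index to the clusters described lay between 0.532 and 0.904.

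**Figure D5:**
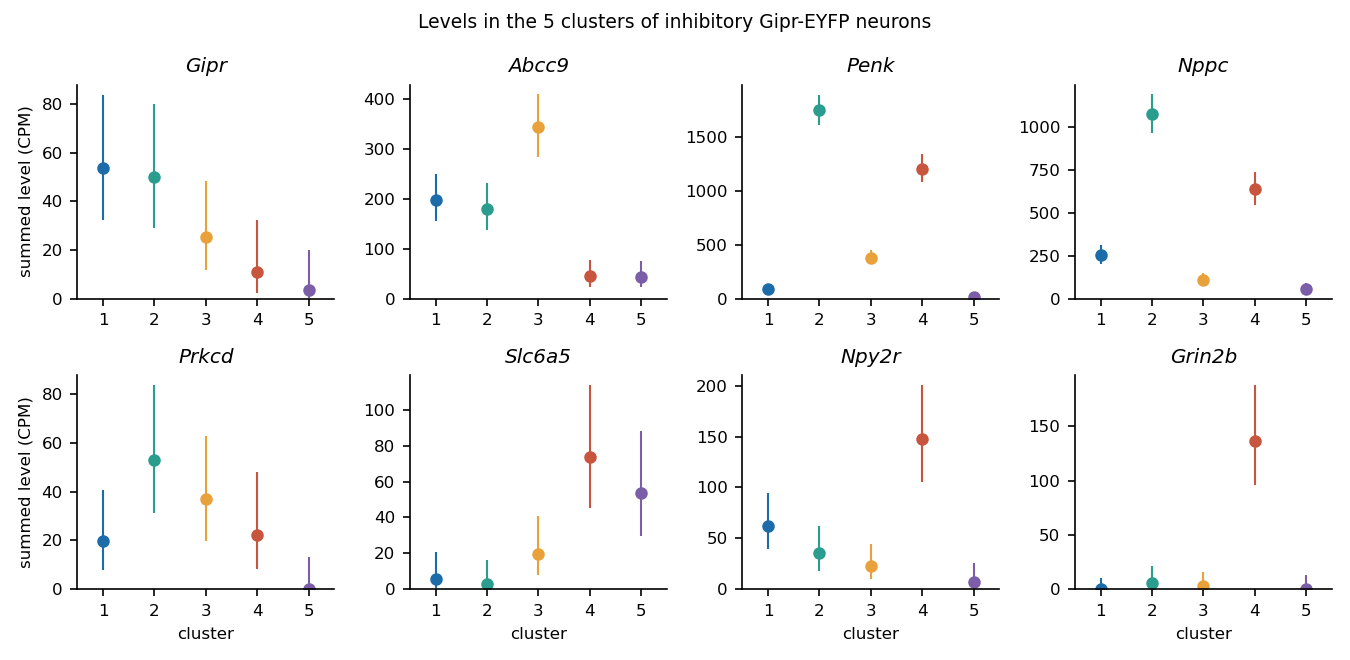
Summed levels of 8 genes, in CPM, in the 5 clusters of inhibitory Gipr-EYFP neurons, with exact 95% Poisson intervals that cover counting error only. Clusters are numbered by their level of *Gipr*, so the order of its levels follows from the numbering. *Abcc9* is higher in clusters 1 to 3 than in 4 and 5, and cluster 3 holds all 4 cells with 10 or more pericyte marker UMIs. The *Gipr* intervals of clusters 3 to 5 overlap, and those of clusters 2 and 4 overlap too. *Slc6a5* is higher in clusters 4 and 5. *Penk* and *Nppc* are higher in clusters 2 and 4, where 2 cells of cluster 4 hold 273 of its 328 UMIs of *Penk*.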

How the data were processed

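The authors sorted EYFP-positive cells and counted UMIs per gene and barcode; the deposited counts are whole numbers for all barcodes, unnormalized and unfiltered, over 32533 genes in each library. The submitters' processing notes name Cell Ranger 6.1.2 and GRCm39, while the matrix headers name version 4. The annotation release is not given in the sources used here. Counts were read with scipy 1.17.1 and pandas 2.3.3 (Python 3.11.15), summed over cells and scaled to the group total. Empty droplets were barcodes with at most 100 UMIs. Poisson, Clopper-Pearson and conditional intervals are at 95%. The rule of size was tried on simulated data for the Glp1r-EYFP comparison (7199 genes). It recovered 50 of 50 genes raised 8-fold and 50 of 50 lowered 8-fold. The changes simulated were 8-fold and 16-fold, both above the 4-fold limit of the rule. Recovery of changes near 4-fold was therefore not tested, and recovery was not split by the UMIs of a gene. Clusters were made with scanpy 1.11.5 and igraph 0.11.9 (10 principal components, 10 neighbors, resolution 1, seed 1); figures with matplotlib 3.10.9. Doublets were left in; Scrublet in scanpy served as an alternative, and its own threshold called 1.15% of the Gipr-EYFP barcodes. edgeR 4.0.16 and DESeq2 1.42.0 (R 4.3.3) tested the 3 sums of inhibitory neurons as alternatives. Genes named are, for each comparison and direction, the 12 of greatest ratio, those the study's text names, in each list the 4 with the highest level and those past the rule, and those most like *Gipr*; some are not reported here. Members and gene lists were chosen with earlier results of these data known.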

Additional observations from a re-analysis of the deposited data

How the results depend on the processing

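The number of inhibitory Gipr-EYFP neurons was 10 when cells with *Abcc9* or *Olig1* were left out and 31 when those with 3 or more UMIs over *Kcnj8*, *Vtn*, *Cldn5*, *Acta2* and *Mog* were, and stayed within 1.5 times under the other alternatives. Of 262 alternatives for single levels and shares, 217 moved by less than counting error and 45 moved, 25 of them under the *Abcc9* and *Olig1* rule. Against the inhibitory Glp1r-EYFP neurons (83 genes higher, 138 lower), a 2-fold limit gave 284 higher and 329 lower and an 8-fold limit 25 and 69. Thinning to 4000 UMIs gave 17 and 12, and the *Abcc9* and *Olig1* rule 28 and 52. A minimum of 10 UMIs gave 267 lower, and no limit on empty droplets 127 higher. Leaving out 1 Glp1r-EYFP library gave 108 to 150 higher and 68 to 112 lower. TMM factors gave 80 and 144, and median-of-ratios factors 77 and 146. edgeR's quasi-likelihood test on the 3 sums, which assumes that the lone Gipr-EYFP library varies like the Glp1r-EYFP libraries, called 606 higher and 849 lower at an adjusted p under 0.05, and DESeq2 81 and 249. Against the excitatory neurons (161 higher, 103 lower), a 2-fold limit gave 396 and 179, thinning 31 and 8, and a minimum of 10 UMIs 237 lower. Between cells with and without *Gipr* (2 higher, 11 lower), a 2-fold limit gave 36 and 47, a minimum of 10 UMIs 6 and 54, thinning 0 and 0, equal weights 1 higher, and leaving out the cells with 3 or more vascular or myelin UMIs, chosen after seeing the data, 6 and 6. Thinning lowers the UMIs that reach the minimum of 30; for the other changes the cause was not tested. No paired analysis was possible because the labels pair no libraries across the 2 genotypes and 1 library stands against 2. Depth limits what 0 UMIs show: in 54 cells they allow a share of cells with a UMI of up to 5.56%, and they do not limit the share of cells that express a gene.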

Other observations

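The genes whose detection was most like that of *Gipr* over the 54 cells, each thinned to 10000 UMIs so that 16 cells kept a UMI of *Gipr*, were *Ngef* (phi coefficient, 0.499; 15 of the 16 cells and 30 of all 54), *Mymk* (0.452), *Adarb2* (0.440), *Lpcat1* (0.434), *Fgd4* (0.425), *1110046J04Rik* and *Eri1* (both 0.421) and *Chn2* (0.417), out of 6839 genes with at least 30 UMIs. The cells share 1 library and the coefficients are given as a description. At the level of single UMIs, *Gipr* also occurred with *Drd2* in 21 cells, with *Penk* in 21, with *Pax2* in 23, with *Nppc* in 16 and with *Sst* in 3.

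Markers of other cell types were present to unequal degrees in the inhibitory Gipr-EYFP neurons. Endothelial markers summed to 297 CPM (most abundant, *Itm2a* with 153 UMIs; none of the 8 at 0), of which 1 cell held 206 of 474 UMIs. Microglia markers summed to 1.25 CPM with 7 of 8 genes at 0, and astrocyte and ependymal markers to 3.75 CPM with 5 of 8 at 0. Choroid plexus markers had 0 UMIs in these cells, against 132 and 8.13 CPM in the inhibitory neurons of Glp1r-EYFP replicates 1 and 2. Fibroblast-like markers were at 6.88 CPM, and markers of neurons that contact the cerebrospinal fluid at 8.76 CPM, all of it *Myo3b*. The immediate early and stress genes listed summed to 1166 CPM, against 937 and 1212 CPM in the inhibitory Glp1r-EYFP neurons, and none of the 9 compared was higher or lower.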
